A study of Drosophila melanogaster with 36 samples.

Results

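Transcripts of the yolk protein genes Yp1, Yp2 and Yp3 and of yl, which encodes the yolk protein receptor Yolkless, were compared between 3 strains of adult Drosophila melanogaster. The members were the array elements whose gene symbol, current or older, is 1 of these 4 names. These were 5 of the 12587 elements listed with 1 gene: 1 each for Yp1, Yp2 and yl, and 2 for Yp3. The Yp3 element at spots 20336 and 20992 is called Yp3 element A here, and that at spots 30757 and 31225 Yp3 element B. A further 2 elements listed Yp3 together with its neighbour Rtc1 and were kept apart. All 4 genes lie on chromosome X.

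Whole adult flies came from a commercial supplier: the wild type Oregon[R], the strain Antennapedia[73b], with an allele of the homeotic gene Antp, and the strain Apterous[56f], with an allele of the homeodomain gene ap. Every ordered pair of strains in channel 1 (Cy3) and channel 2 (Cy5) was hybridised on 4 arrays, which makes 9 groups and 36 arrays. On 12 arrays a strain was set against itself, and on 24 arrays 2 strains were compared with the dyes exchanged. Each genotype was 1 stock, so an allele and the rest of its stock's genome cannot be told apart. The labels state neither the sex and age of the flies, nor other alleles in the stocks, nor the number of flies and RNA extractions. P-values thus measure the spread between arrays alone, and that spread may be technical.

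Yolk proteins are made by the fat body and by the follicle cells of the ovary, travel in the blood, and are taken into the oocyte, where they are stored as food for the embryo. Yolkless is a receptor of the LDL receptor family on the oocyte surface that takes them up by clathrin-mediated endocytosis. In flies the yolk protein genes are switched on in females by the sex determination factor Doublesex and respond to ecdysone and juvenile hormone, whereas yl is transcribed in the female germline. Yp1 and Yp2 are adjacent genes, and Yp3 lies elsewhere on the same chromosome. Fewer cells of a type and less RNA per cell cannot be told apart in RNA of whole flies.

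Between 26362 and 30716 of 31464 spots per array had a value, and all 5 elements had a value on all 36 arrays at both of their spots. A value is a log2 ratio of channel 1 to channel 2 as coded, averaged over the pair of spots. Deposited folds had 1 decimal, so the smallest step next to no difference was 0.14 for a single spot. The average of a pair can be smaller, such as 0.07 where 1 of 2 spots shows that step. The labels do not state which strain a positive fold favours, so each difference is described by its side on the coded scale. If folds were formed as channel 1 over channel 2, a plus value stands for more transcript in the first-named strain, and if they were formed the other way round for less. The table holds ratios and no intensities, so levels of different genes were not compared and no tissue marker could be checked for its presence. No probe sequence was used here, and signal shared between the related Yp1, Yp2 and Yp3 cannot be told apart.

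Self-hybridised arrays showed the spread with no strain difference. Over the 12 such arrays the log2 ratio of Yp1 averaged 0.06 ± 0.071 (SD, n = 12), and that of Yp2 averaged 0.12 ± 0.12 (SD, n = 12). Yp3 element A averaged 0.08 ± 0.21 (SD, n = 12) and Yp3 element B averaged 0.02 ± 0.17 (SD, n = 12). yl averaged 0.01 ± 0.14 (SD, n = 12), with its farthest array at -0.38. Yp3 element A was the widest of the 5, reaching 0.54. Over all 36 arrays the dye offset was 0.09 (SE 0.026) for Yp1, 0.12 (SE 0.029) for Yp2, 0.13 (SE 0.035) for Yp3 element A, 0.11 (SE 0.036) for Yp3 element B and -0.0026 (SE 0.028) for yl. A dye term in the model removes such an offset from the strain differences.

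**Figure D1:**
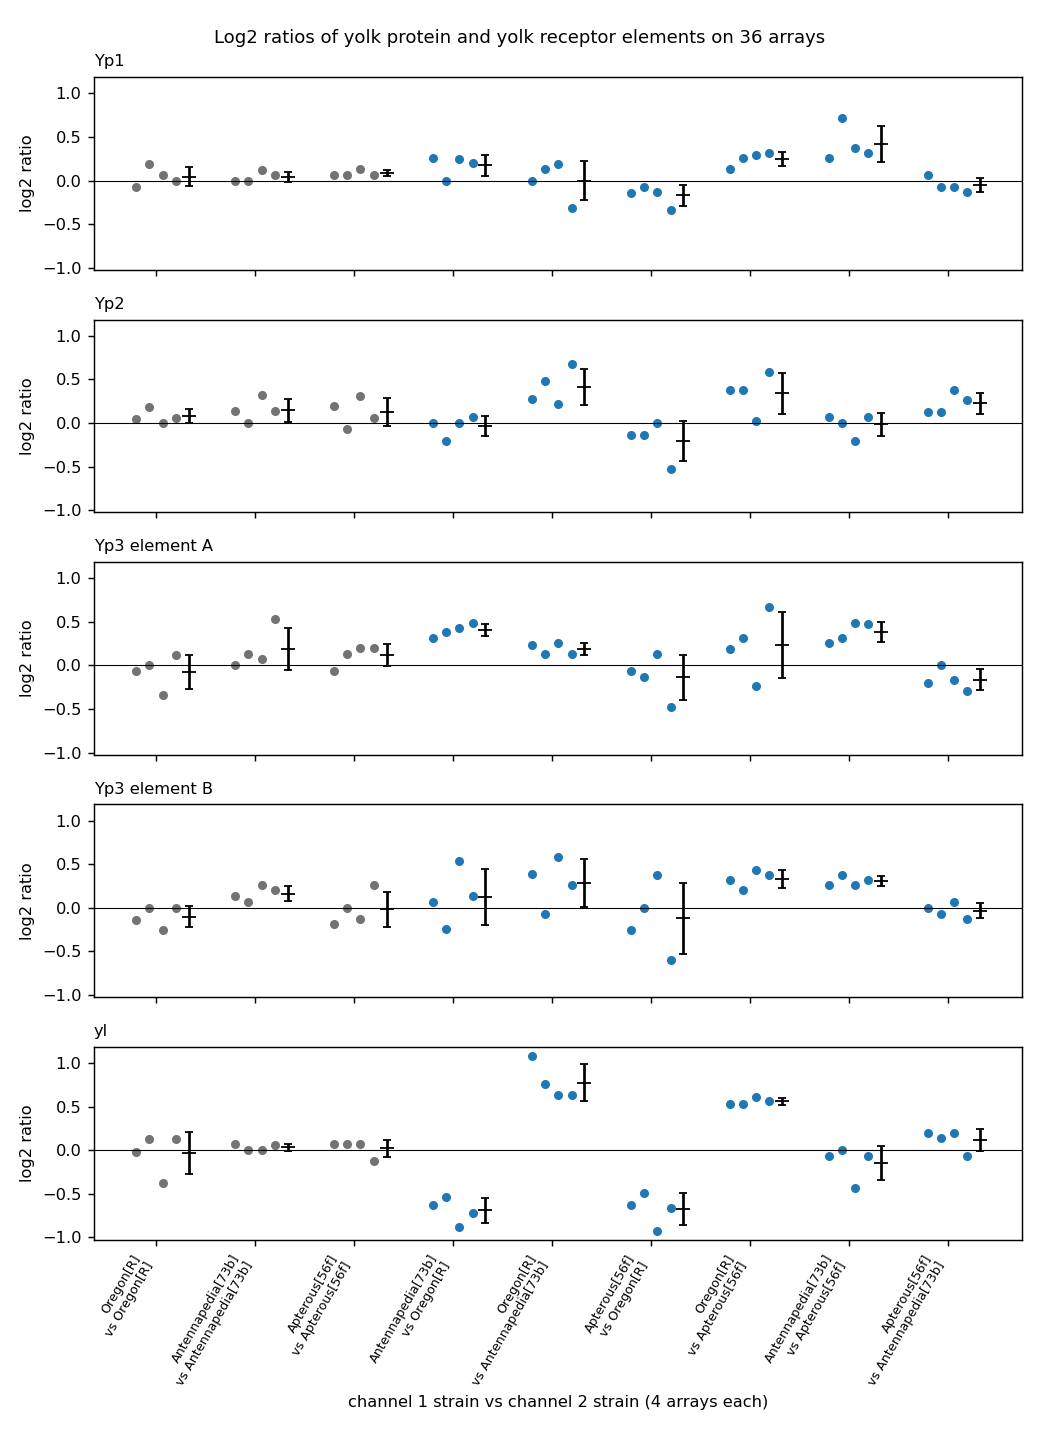
Log2 ratio of channel 1 to channel 2 as coded (y axis) for the 5 elements on every array, by group of 4 arrays (x axis, channel 1 strain first). Grey points are self-hybridised arrays, blue points arrays of 2 strains, and bars the group mean ± SD (n = 4). All points of yl swap sides with the dyes in both comparisons with Oregon[R]. Between Apterous[56f] and Oregon[R] the group means of the 4 yolk protein elements do so by smaller amounts, and between Antennapedia[73b] and Oregon[R] only that of Yp2 does.

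The receptor gene yl had the largest strain differences of the 5 elements, on the same side in both mutant strains. In the comparison of Antennapedia[73b] with Oregon[R] it lay 1.67-fold to the minus side, and in that of Apterous[56f] with Oregon[R] 1.53-fold. Between the mutant strains yl did not pass the threshold. The deposited folds of its spots lay between 1.2 and 2.6 on the Oregon[R] vs Antennapedia[73b] arrays and between -2.1 and -1.4 on the arrays with exchanged dyes, with no spot on the other side. They lay between 1.3 and 1.9 on the Oregon[R] vs Apterous[56f] arrays and between -2.0 and -1.3 with the dyes exchanged.

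Turned so that Antennapedia[73b] comes first, the log2 ratios of yl were -0.63, -0.54, -0.87 and -0.72 on the arrays with this strain in channel 1. They were -1.09, -0.76, -0.63 and -0.63 with the dyes exchanged. All 8 arrays lay on the minus side, farther out than any self-hybridised array. The difference was -0.74 (SE 0.048, limma adjusted p = 4.6e-18), and 27 of 14866 elements tested had a lower value.

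For Apterous[56f] against Oregon[R] the turned log2 ratios of yl were -0.63, -0.49, -0.92 and -0.67 in 1 orientation and -0.54, -0.54, -0.62 and -0.57 in the other. Again all 8 arrays lay on the minus side, and again 27 elements had a lower difference. The difference was -0.62 (SE 0.048, limma adjusted p = 8.2e-15). Within the first 2 arrays of each group, the last 2, even-numbered and odd-numbered arrays, 18 arrays each, it ran from -0.65 to -0.58, and that of Antennapedia[73b] against Oregon[R] from -0.84 to -0.64. yl passed the threshold in each of these 4 subsets in both comparisons with Oregon[R].

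For Antennapedia[73b] against Apterous[56f] the turned log2 ratios of yl were -0.07, 0.00, -0.43 and -0.06, and -0.20, -0.14, -0.20 and 0.06 with the dyes exchanged. These values overlap those of self-hybridised arrays. The difference was -0.12 (95% interval -0.22 to -0.03, limma adjusted p = 0.074). This value lies near the threshold: without array 68 the adjusted p was 0.035 (difference -0.14), without array 73 it was 0.048 (-0.14), after quantile normalization 0.043 (-0.14), after centring on a trimmed mean 0.023 (-0.15) and with place in the group as a block 0.045 (-0.12).

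All 4 elements listed with a yolk protein gene alone, both Yp3 elements included, lay on the minus side when Apterous[56f] was compared with Oregon[R]. The amounts were smaller than that of yl. With yl, 5 of 5 elements were called on the minus side, where 8.76% of all 14866 elements were called, and 0 on the plus side, where 6.94% were called (15.7% on either side). Their median difference was -0.22, against -0.02 over all elements tested. The 2 elements listed with both Yp3 and Rtc1 are not in these counts and were not called here (-0.04 and -0.02, limma adjusted p = 0.74 and 0.83). Calls over all elements split differently by centring: 44.2% of them lay on the plus side, and 54.1% after centring on a trimmed mean.

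Yp1 had turned log2 ratios of -0.14, -0.07, -0.13 and -0.34 with Apterous[56f] in channel 1, and -0.13, -0.26, -0.29 and -0.31 with the dyes exchanged. All 8 direct arrays lay on the minus side, although some were no larger in size than the farthest self-hybridised array, at 0.19. Its difference was -0.19 (SE 0.045, limma adjusted p = 0.0021), a fold of 1.14.

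Yp2 had turned log2 ratios of -0.14, -0.14, 0.00 and -0.53, and of -0.38, -0.38, -0.02 and -0.59 with the dyes exchanged. Of the 8 arrays 7 lay on the minus side and 1 at no difference. The difference of Yp2 was -0.22 (SE 0.051, limma adjusted p = 0.0018).

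Yp3 element A varied more between arrays, at -0.07, -0.14, 0.14 and -0.48, and at -0.19, -0.32, 0.24 and -0.67 with the dyes exchanged. The difference was -0.18 (SE 0.061, limma adjusted p = 0.034). Yp3 element B stood at -0.26, 0.00, 0.37 and -0.60, and at -0.32, -0.20, -0.43 and -0.38 with the dyes exchanged, and differed by -0.24 (SE 0.062, limma adjusted p = 0.0053). Both Yp3 elements had 6 of 8 direct arrays on the minus side.

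The calls of the yolk protein elements in this comparison were less stable than that of yl. On the 8 direct arrays alone the limma adjusted p was 0.075 for Yp1, 0.061 for Yp2, 0.31 for Yp3 element A and 0.19 for Yp3 element B, with differences of -0.21, -0.27, -0.19 and -0.23. Within even-numbered arrays none of the 4 passed (differences -0.14, -0.078, -0.051 and -0.18, limma adjusted p = 0.22, 0.61, 0.81 and 0.33), and the size for Yp2 and Yp3 element A fell by over 1.5 times. Within the last 2 arrays of each group none passed either (differences -0.21, -0.20, -0.20 and -0.24, limma adjusted p = 0.079, 0.21, 0.27 and 0.16). Within odd-numbered arrays the 4 differences were -0.24, -0.35, -0.31 and -0.30, and all passed. The call of Yp3 element A was also lost without array 52, 55, 57, 66, 67 or 69, with differences of -0.17, -0.18, -0.15, -0.18, -0.17 and -0.14 and limma adjusted p between 0.051 and 0.12.

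In Antennapedia[73b] against Oregon[R] the yolk protein genes were not all called. Yp2 lay on the minus side, while Yp1 and both elements of Yp3 did not pass the threshold. Of the 5 elements, yl included, 2 were called on the minus side, where 10.1% of all elements were called, and 0 on the plus side, where 11.9% were called (22% on either side). Their median difference was -0.07, against 0.01 over all elements tested.

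The turned log2 ratios of Yp2 were 0.00, -0.20, 0.00 and 0.07 with Antennapedia[73b] in channel 1, and -0.27, -0.48, -0.22 and -0.68 with the dyes exchanged. The turned values averaged -0.03 ± 0.12 (SD, n = 4) with Antennapedia[73b] in channel 1 and -0.41 ± 0.21 (SD, n = 4) with Oregon[R] in channel 1, so the minus values came mainly from the latter arrays. A dye offset, 0.12 (SE 0.029) for Yp2, raises the former values and lowers the latter. The difference of Yp2 was -0.28 (SE 0.051, limma adjusted p = 2.4e-05), a fold of 1.21. It ran from -0.38 to -0.18 within the 4 subsets of arrays, and in even-numbered arrays it did not pass (-0.18, limma adjusted p = 0.085).

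Yp1, the gene beside Yp2, stood at 0.26, 0.00, 0.24 and 0.20, and at 0.01, -0.13, -0.19 and 0.31 with the dyes exchanged. Its difference was 0.07 (95% interval -0.02 to 0.16, limma adjusted p = 0.32). Yp3 element A had turned log2 ratios between 0.32 and 0.49 in 1 orientation and between -0.26 and -0.13 in the other, so its sides followed the dyes, and its difference was 0.10 (95% interval -0.02 to 0.22, limma adjusted p = 0.25). Yp3 element B stood at 0.07, -0.24, 0.54 and 0.14, and at -0.39, 0.07, -0.59 and -0.26 with the dyes exchanged. Its difference was -0.07 (95% interval -0.20 to 0.05, limma adjusted p = 0.43). For these elements the intervals exclude a difference as large as that of yl.

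Between the mutant strains, Antennapedia[73b] against Apterous[56f], Yp1 and Yp3 element A lay on the plus side. The other 3 elements were not called. The 2 calls of 5 compare with 10.2% of all elements called plus and 5.19% called minus (15.4% on either side). The median difference was 0.16, against 0.02 over all elements tested. The plus side held 66.3% of all calls, 50.8% after centring on a trimmed mean and 50.2% after quantile normalization.

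Yp1 had turned log2 ratios of 0.26, 0.72, 0.38 and 0.32 with Antennapedia[73b] in channel 1, and of -0.07, 0.07, 0.07 and 0.13 with the dyes exchanged. Of the 8 arrays 7 lay on the plus side. The difference was 0.26 (SE 0.045, limma adjusted p = 2.4e-05), and within even-numbered arrays 0.19 (limma adjusted p = 0.063).

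Yp3 element A stood at 0.26, 0.32, 0.49 and 0.48, and at 0.20, 0.00, 0.16 and 0.29 with the dyes exchanged. The difference was 0.28 (SE 0.061, limma adjusted p = 5e-04), and within even-numbered arrays 0.20 (limma adjusted p = 0.18). Yp3 element B lay on the same side, at 0.26, 0.38, 0.26 and 0.32, and at 0.00, 0.07, -0.07 and 0.13 with the dyes exchanged. Its difference of 0.16 did not pass (SE 0.062, limma adjusted p = 0.071), but did so without array 52 (0.18, limma adjusted p = 0.034) or array 68 (0.18, limma adjusted p = 0.024).

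Yp2 was not called between the mutant strains. Its turned log2 ratios stood at 0.07, 0.00, -0.20 and 0.07, and at -0.13, -0.13, -0.38 and -0.26 with the dyes exchanged. Its difference was -0.06 (95% interval -0.17 to 0.04, limma adjusted p = 0.45). On the 8 direct arrays alone it averaged -0.12 ± 0.16 (SD, n = 8), with 5 arrays minus and 2 plus, and an exact permutation p of 0.0286, unadjusted and the smallest possible.

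**Figure D2:**
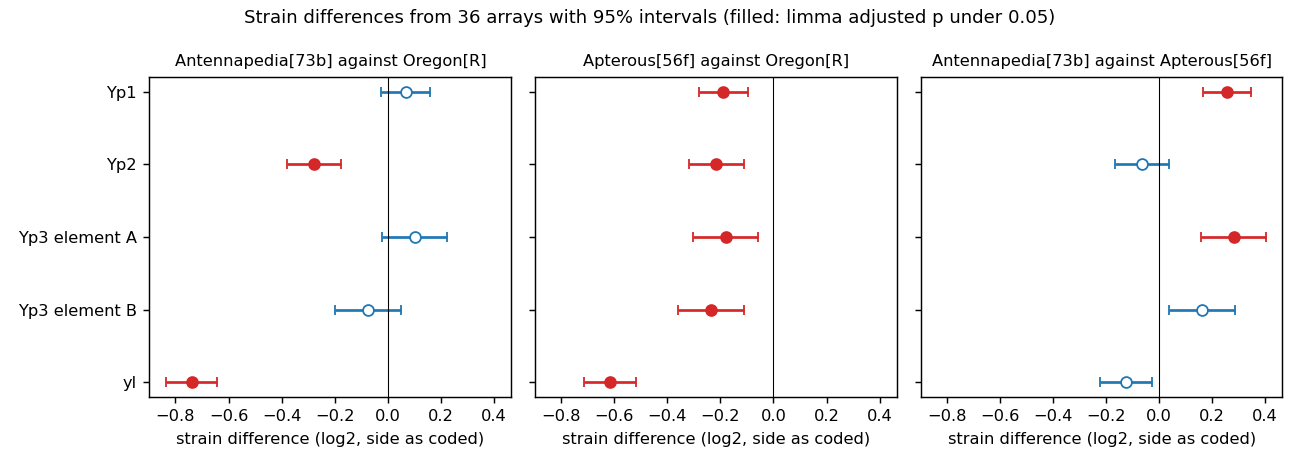
Strain differences (x axis, log2, side as coded) of the 5 elements (y axis) from the fit to 36 arrays, with 95% intervals; filled red points passed a limma adjusted p of 0.05. yl lies at -0.74 and -0.62 in the comparisons with Oregon[R], and the yolk protein elements between -0.28 and 0.10.

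These differences order the strains along the coded scale, and the order was not the same for all genes. For yl, Oregon[R] stood at the plus end, and the mutant strains were not called against each other. For Yp2 the order was the same, again with no call between the mutant strains. For Yp1 and Yp3 element A, Apterous[56f] stood at the minus end, and Oregon[R] and Antennapedia[73b] were not called against each other. Yp3 element B was called only between the strains Apterous[56f] and Oregon[R]. Each pair of strains was compared directly and through the third strain, and the direct minus the indirect difference lay between -0.03 and 0.17 for the 5 elements. None passed (limma adjusted p = 1 for each, smallest unadjusted p = 0.12 for Yp2), nor did any of the 14866 elements. An exact permutation test of the orientations of the 8 direct arrays (70 splits, two-sided, unadjusted) gave its smallest possible p of 0.0286 in 10 of 15 tests of an element in a comparison, and from 0.0857 to 0.457 in the others. The 10 include all calls of yl, Yp1 and Yp2, Yp2 between the mutant strains, both Yp3 elements between the mutant strains, and Yp3 element A in Antennapedia[73b] against Oregon[R].

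Differences between members were tested on the 8 direct arrays of each comparison, where the difference of a pair of elements was taken on each array and the orientations were permuted exactly (70 splits, two-sided). The smallest p this allows is 0.0286, and 30 tests were made, of 10 pairs in 3 comparisons. By the exact permutation test 16 of 30 tests reached that smallest p, which with this number of ties adjusts to 0.0536. Thus 0 passed after adjustment, a result that depends on the number of tests tied at the smallest p. In a limma fit of the same differences to all 36 arrays, added after the data were seen, 19 of 30 passed with p-values adjusted over the 30.

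yl lay farther to the minus side than each yolk protein element in both comparisons with Oregon[R]. In Antennapedia[73b] against Oregon[R] the yolk protein element minus yl was 0.81 (SE 0.055) for Yp1, 0.46 (SE 0.061) for Yp2, 0.84 (SE 0.066) for Yp3 element A and 0.66 (SE 0.074) for Yp3 element B. In Apterous[56f] against Oregon[R] these values were 0.43, 0.40, 0.44 and 0.38. All 8 had the smallest exact p (0.0286, adjusted 0.0536) and limma p adjusted over pairs between 4.6e-18 and 9.6e-06.

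Yp1 and Yp2 differed from each other where Antennapedia[73b] was involved. Yp1 minus Yp2 was 0.35 (SE 0.058) in Antennapedia[73b] against Oregon[R] and 0.32 (SE 0.058) in Antennapedia[73b] against Apterous[56f], with Yp1 farther to the plus side on 8 of 8 direct arrays in each. The exact permutation p was 0.0286 (adjusted 0.0536), and the limma p adjusted over pairs 6.3e-07 and 2.9e-06. In Apterous[56f] against Oregon[R] the value was 0.03 (SE 0.058, exact permutation p = 0.4, limma p adjusted over pairs 0.73). In the limma fit the value between the mutant strains is that of Antennapedia[73b] against Oregon[R] minus that of Apterous[56f] against Oregon[R]. The limma test of 0.32 is thus also the test of 0.35 against 0.03 (limma p adjusted over pairs 2.9e-06). For the same reason 0.35 and 0.32 are not separate results. Whether 0.03 differs from 0.32 was not tested.

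Yp1 and Yp3 element A did not differ beyond the test in any comparison, with values of -0.03, -0.01 and -0.03 (SE 0.064, exact permutation p between 0.571 and 0.886). The 2 elements of Yp3 differed by 0.18 (SE 0.062) in Antennapedia[73b] against Oregon[R], although they are listed with the same gene (exact permutation p = 0.0571, limma p adjusted over pairs 0.01). The exact permutation test did not pass (adjusted p = 0.101), and the limma test was added after the data were seen. Whether Yp3 values in that comparison depend on the element is thus not settled, and each element is given by itself.

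The 2 elements listed with both Yp3 and Rtc1, an RNA cyclase-like gene beside Yp3, did not follow elements A and B. The element at spots 13499 and 14157 differed by -0.20 (SE 0.068, limma adjusted p = 0.028) in Antennapedia[73b] against Oregon[R], by -0.04 (SE 0.068, limma adjusted p = 0.74) in Apterous[56f] against Oregon[R] and by -0.16 (SE 0.068, limma adjusted p = 0.11) between the mutant strains. The element at spots 29646 and 30306 differed by -0.10, -0.02 and -0.08 (SE 0.055), with limma adjusted p of 0.18, 0.83 and 0.35. The call of the first was lost without array 51, 52, 53 or 64 (-0.19 in each, limma adjusted p of 0.05 to 0.053). It was also lost without a dye term, on the direct arrays, with either spot alone and within even-numbered or odd-numbered arrays (-0.23 to -0.17, limma adjusted p between 0.11 and 0.25). Within the first 2 arrays of each group it stood at -0.068 (limma adjusted p = 0.5), and within the last 2 at -0.33 (limma adjusted p = 0.027). Both carry the same accessions, and which of the genes they measured cannot be told from the table.

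Genes that act on the yolk proteins were described by lists. Of all elements, 22%, 15.7% and 15.4% were called on either side in Antennapedia[73b] against Oregon[R], Apterous[56f] against Oregon[R] and between the mutant strains, and the counts of each list are read against these shares. The regulators had 6, 5 and 1 calls of 25, close to the share over all elements in both comparisons with Oregon[R]. These 25 tested genes were listed as regulators of yolk gene transcription or of the hormones behind it, and whether each acts on yolk genes was not tested. In Antennapedia[73b] against Oregon[R] 3 were called plus and 3 minus, with a median of 0.00. In Apterous[56f] against Oregon[R] 1 was plus and 4 minus (median -0.01), and between the mutant strains 0 were plus and 1 minus (median 0.02). Kr-h1, a zinc finger factor induced by juvenile hormone, lay on the plus side in both comparisons with Oregon[R] (0.36, SE 0.061, limma adjusted p = 7.8e-06, and 0.34, SE 0.061, limma adjusted p = 3.2e-05). shd, which encodes the hydroxylase that makes active ecdysone, stood at 0.27 in Antennapedia[73b] against Oregon[R], and hb, a zinc finger factor of embryonic patterning, at -0.22. In Apterous[56f] against Oregon[R] usp, the partner of the ecdysone receptor, stood at -0.19 and srp, a GATA factor of the fat body, at -0.16. tra2, a splicing regulator of sex determination, lay at -0.20 between the mutant strains.

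The machinery that takes up yolk with the receptor had 2, 3 and 1 calls of 18 in the 3 comparisons, where 22%, 15.7% and 15.4% of all elements were called. Of these genes, 0 were plus and 2 minus in Antennapedia[73b] against Oregon[R] (median 0.02), 1 plus and 2 minus in Apterous[56f] against Oregon[R] (median -0.03), and 1 plus and 0 minus between the mutant strains (median 0.02). AP-2mu, a clathrin adaptor subunit, lay at -0.15 and -0.19 in the comparisons with Oregon[R]. The exocyst gene Sec15 stood at -0.21 for Antennapedia[73b], and the clathrin light chain Clc at -0.23 and the epsin lqf at 0.15 for Apterous[56f]. Past1, an EHD protein of endocytic recycling, stood at 0.16 between the mutant strains. The 18 genes ranged from -0.23 to 0.16 over the 3 comparisons, and yl lay outside this range in both comparisons with Oregon[R].

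Of 10 tested genes of yolk sulfation and breakdown, 1 was plus and 3 minus in Antennapedia[73b] against Oregon[R] (median 0.10) and 1 plus and 1 minus in Apterous[56f] against Oregon[R] (median -0.06), while 3 were plus and 0 minus between the mutant strains (median 0.04). These 4, 2 and 3 calls of 10 stand against 22%, 15.7% and 15.4% over all elements. The protease cathepsin B, CtsB, stood at 0.36 and 0.30 in the comparisons with Oregon[R], and the cathepsin CtsK1 at -0.32 and -0.30. Papss, which makes the sulfate donor, stood at -0.21 for Antennapedia[73b]. Between the mutant strains the lysosomal protease cathD stood at 0.28, the tyrosine sulfotransferase Tpst at 0.18 and the proton pump subunit Vha16-1 at 0.13.

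A list of lipid transport and storage genes holds circulating lipoproteins, which also carry lipid to the oocyte, receptors, lipid droplet proteins, lipases and sterol carriers. It had 6 plus and 2 minus calls of 18 in Antennapedia[73b] against Oregon[R] (median 0.10), 5 plus and 2 minus in Apterous[56f] against Oregon[R] (median -0.01), and 5 plus and 1 minus between the mutant strains (median 0.07). These 8, 7 and 6 calls of 18 stand against 22%, 15.7% and 15.4% over all elements. In Antennapedia[73b] against Oregon[R] 4 of the 8 calls were of the lipoprotein genes apolpp and Apoltp and the receptor genes LpR1 and Cubn2. The other 4 were the lipid droplet genes Lsd-1 (0.21) and Lsd-2, the lipase gene bmm (0.25) and Npc2a (0.14). apolpp, the main lipoprotein of the blood, stood at 0.48 for Antennapedia[73b] against Oregon[R] and at 0.40 against Apterous[56f]. Cubn2, which encodes a cubilin, a receptor for the uptake of proteins, stood at -0.33 for Antennapedia[73b] and -0.81 for Apterous[56f] against Oregon[R], and at 0.49 between the mutant strains. Lsd-2, a lipid droplet protein, stood at -0.28 for Antennapedia[73b], the sterol carrier Npc2a at 0.20 for Apterous[56f], and the lipase Lip3 at -0.25 for Apterous[56f] and 0.36 between the mutant strains.

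Markers of the tissues that make or use yolk were called as well. Egg shell genes of the follicle cells had 13 of 13 called on the minus side in both comparisons with Oregon[R] (medians -0.85 and -0.51, ranges -1.16 to -0.33 and -0.81 to -0.26) and 9 of 13 between the mutant strains (median -0.32). Over all elements 10.1%, 8.76% and 5.19% were called on that side. They included the chorion gene Cp38 (-1.16, -0.81 and -0.35), Femcoat (-0.85, -0.51 and -0.34) and the vitelline membrane gene Vm32E (-1.11 for Antennapedia[73b] against Oregon[R] and -0.46 between the mutant strains), while dec stood at -0.61 for Apterous[56f] against Oregon[R]. Ovary germline genes, the tissue of yl, had 17 of 21 minus in Antennapedia[73b] against Oregon[R] (median -0.29, range -0.69 to 0.09), 12 of 21 in Apterous[56f] against Oregon[R] (median -0.18, range -0.49 to 0.07) and 8 of 21 between the mutant strains (median -0.11), with 0 plus in each, against the same shares on the minus side. Among them gnu stood at -0.69, -0.34 and -0.35, and vas, an RNA helicase of the germline, at -0.55 for Antennapedia[73b] against Oregon[R] and -0.34 between the mutant strains. The meiotic gene mtrm stood at -0.69 and -0.39 in the same comparisons, and me31B, an RNA helicase of stored mRNAs, and the cyclin CycB at -0.49 and -0.35 for Apterous[56f] against Oregon[R]. yl lay beyond all 21 germline genes tested in both comparisons with Oregon[R].

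Fat body genes, from the other tissue of the yolk proteins, lay mainly on the plus side against Oregon[R], but not between the mutant strains. Of 7 tested, 5 were plus and 1 minus in Antennapedia[73b] against Oregon[R] (median 0.27), 4 plus and 0 minus in Apterous[56f] against Oregon[R] (median 0.27) and 3 plus and 3 minus between the mutant strains (median 0.01). Over all elements 11.9%, 6.94% and 10.2% were called on the plus side and 10.1%, 8.76% and 5.19% on the minus side. fit, a peptide gene of the female fat body, stood at 1.45, 0.49 and 0.97, the alcohol dehydrogenase Adh at 0.80 for Antennapedia[73b] against Oregon[R] and 0.53 between the mutant strains, and the larval fat body genes Fbp1 and Fbp2 at 0.55 and 0.47 for Apterous[56f] against Oregon[R]. Called on the minus side were Obp99b, an odorant-binding protein gene, for Antennapedia[73b] against Oregon[R] (-0.23), and Fbp1 (-0.34), Fbp2 (-0.20) and Obp99b (-0.16) between the mutant strains. apolpp is in this list too.

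Genes listed for the male accessory gland and ejaculatory duct also lay mainly on the minus side against Oregon[R]. Of 15 tested, 0 were plus and 8 minus for Antennapedia[73b] (median -0.30) and 1 plus and 12 minus for Apterous[56f] (median -0.32), and 7 were plus and 1 minus between the mutant strains (median 0.10). Over all elements 10.1% and 8.76% were called minus against Oregon[R], and 11.9% and 6.94% plus. Between the mutant strains 10.2% were called plus and 5.19% minus. Acp53C14a stood at -0.62 and -0.69 in the comparisons with Oregon[R] and Acp53C14b at -0.52 and -0.75, with Acp62F at -0.54 for Antennapedia[73b] and Ebp at -0.50 for Apterous[56f]. The 1 plus call for Apterous[56f] against Oregon[R] was Obp56e (0.25, limma adjusted p = 0.00012), which stood at -0.36 for Antennapedia[73b] against Oregon[R]. Between the mutant strains Obp56g stood at 0.44, Acp76A at 0.37 and Obp56e at -0.61. Testis genes had 1 plus and 4 minus of 11 for Antennapedia[73b] (median -0.09), 0 plus and 5 minus for Apterous[56f] (median -0.16), and 4 plus and 0 minus between the mutant strains (median 0.03). These 5, 5 and 4 calls of 11 stand against 22%, 15.7% and 15.4% over all elements. betaTub85D, the testis tubulin, stood at 0.16 for Antennapedia[73b] against Oregon[R], the 1 plus call there (limma adjusted p = 0.0083). It stood at -0.17 for Apterous[56f] against Oregon[R] and 0.33 between the mutant strains. twe, a germline Cdc25 phosphatase, stood at -0.31 for Antennapedia[73b] against Oregon[R], and the sperm genes Mst87F and dj at -0.21 and -0.19. Mst87F stood at -0.22 for Apterous[56f] against Oregon[R], and Mst98Cb at 0.16 between the mutant strains. bol, which encodes an RNA-binding protein of male meiosis, stood at -0.18 for Apterous[56f] against Oregon[R] and 0.23 between the mutant strains. The part of the tissue make-up of the flies in the differences of yl and the yolk protein genes was not tested. Medians over all elements tested were 0.01, -0.02 and 0.02 in the 3 comparisons.

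**Figure D3:**
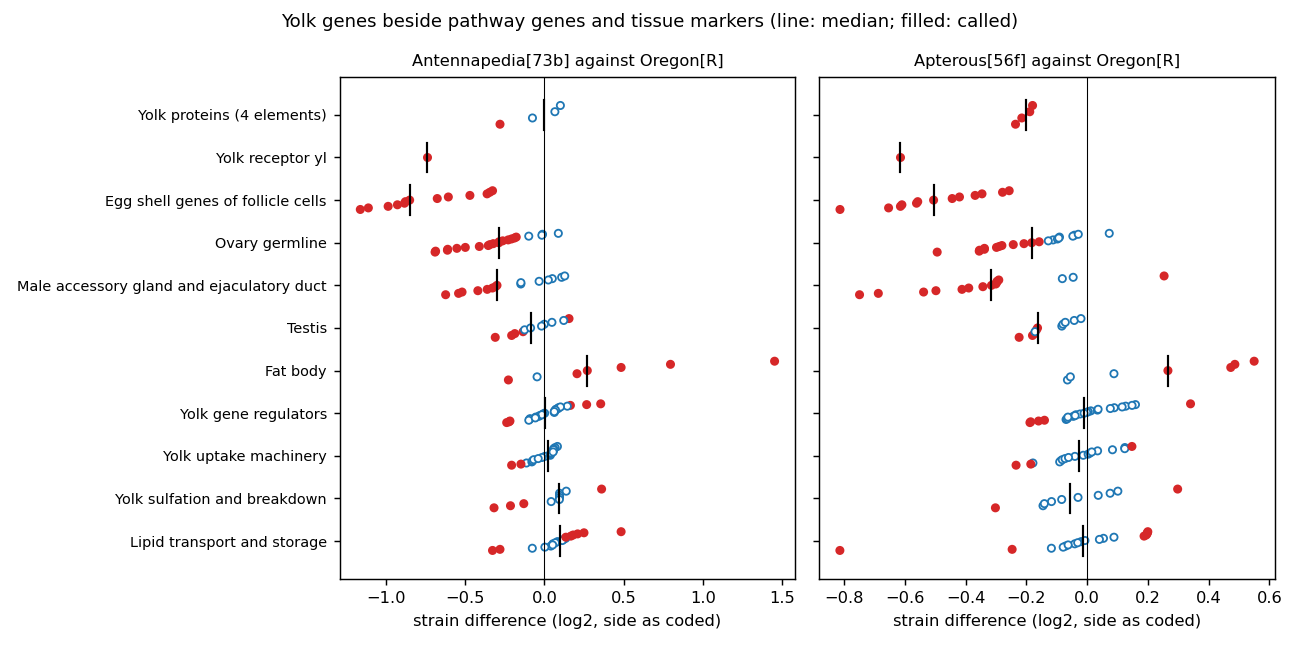
Strain differences (x axis, log2, side as coded) of yolk genes, pathway genes and tissue markers (y axis) in the comparisons with Oregon[R]; each point is 1 element or gene, lines are medians, and filled red points passed a limma adjusted p of 0.05. The egg shell genes (13 of 13 called minus) lie near yl, and the fat body genes (medians 0.27 and 0.27) on the other side.

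Genes whose ratios over the 36 arrays were most like those of each element are given as a description. They share arrays, dyes and RNA with it, and 10418 elements with 1 gene and a value on all arrays were ranked. For yl these were CG4734 (Pearson r = 0.96), Cp38 (0.94), Cyp6w1 (0.94), the egg shell gene yellow-g (0.93) and Jhbp2 (0.92). For Yp2 they were CG3348 (0.81), CG7214 (0.79), the trypsin gene epsilonTry (0.78), nesd (0.77) and Sms (0.77). For Yp1 they were Rab35 (0.81), Gdh (0.80), CG17108 (0.79), Pgk (0.76) and CG7953 (0.76), which include the glutamate dehydrogenase and phosphoglycerate kinase genes. For Yp3 element A they were CG11368 (0.82), CG13218 (0.81), Cyp9b1 (0.77), CG13502 (0.75) and Nazo (0.72), and for Yp3 element B CG14772 (0.76), Acp53C14b (0.72), mRpL3 (0.72), CG9389 (0.71) and CG6340 (0.70). No gene was among the 5 of more than 1 element, and no yolk gene was among the 5 of another. Across the 36 arrays the correlation was 0.71 between Yp2 and yl, 0.06 between Yp1 and Yp2, 0.56 between Yp1 and Yp3 element A, and 0.59 between the elements of Yp3. These values include the strain differences. On the 12 self-hybridised arrays the same pairs had correlations of 0.34, 0.55, 0.11 and 0.64.

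The position of the genes was also described. Of 1906 tested elements on chromosome X, 10.5% were called on the minus side in Antennapedia[73b] against Oregon[R] and 8.87% in Apterous[56f] against Oregon[R], close to the shares over all elements. The nearest tested genes beside yl, CG13403 and CG11590, stood at 0.14 and 0.09 in Antennapedia[73b] against Oregon[R] and at 0.18 and -0.08 in Apterous[56f] against Oregon[R], where CG13403 passed (limma adjusted p = 0.016). Beside the pair Yp1 and Yp2, Cht6 stood at 0.17 and 0.23 and CG15312 at 0.03 and -0.10. The nearest tested genes on either side of Yp3 were Pdcd4 and rdgB: Pdcd4 stood at 0.03 and -0.03 and rdgB at 0.07 and 0.11. None of these values of Cht6, CG15312, Pdcd4 and rdgB passed (limma adjusted p between 0.065 and 0.85).

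**Figure D4:**
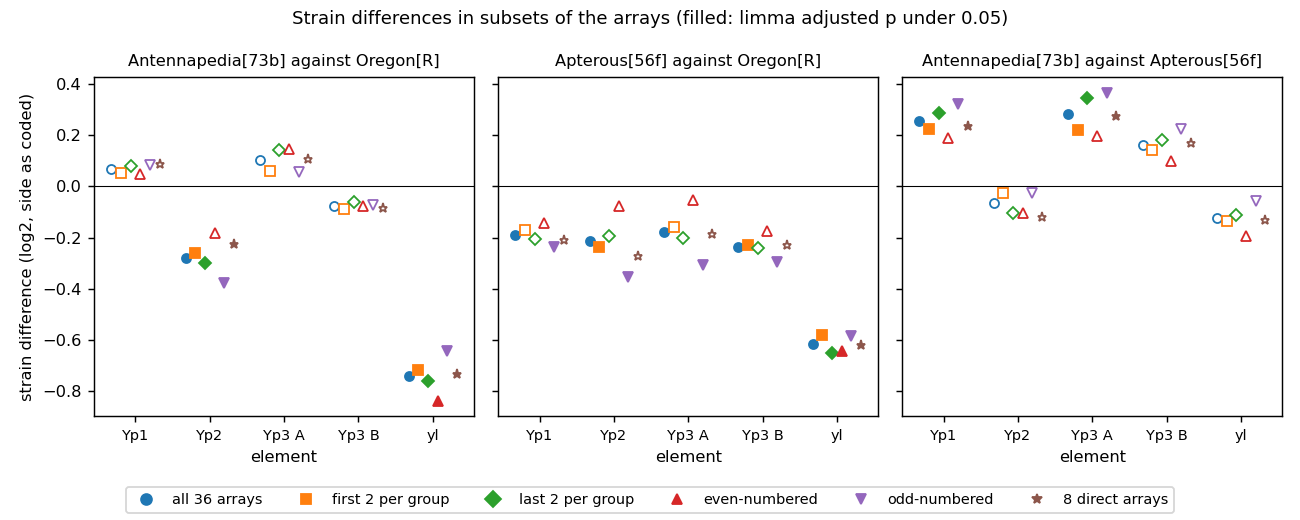
Strain differences (y axis, log2, side as coded) of the 5 elements (x axis) from all 36 arrays, from 4 subsets of 18 arrays and from the 8 direct arrays; filled symbols passed a limma adjusted p of 0.05. yl is filled in all subsets in both comparisons with Oregon[R]. The yolk protein elements in Apterous[56f] against Oregon[R] are open in even-numbered arrays, in the last 2 arrays per group and in the 8 direct arrays.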

How the data were processed

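The deposited table holds 1 score per spot and array, a signed fold ratio between the channels, as read from the deposited values: of 1059750, 0 lay between -1 and 1. Per the labels' protocols, poly(A) mRNA was labelled with random primers in Cy3 or Cy5 and arrays were scanned on a GenePix scanner; no label or header names the later steps. Array medians of the folds were 1 or -1 on 32 arrays and 1.1 on the other 4. Folds were turned into log2 ratios, centred on each array's median and averaged over the 2 spots of each of 15732 elements, paired by the probe layout in 24 blocks. Gene symbols came from GEO's platform table and were updated through RefSeq Release 6 for 12107 elements.

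limma 3.58.1 in R 4.3.3 was fitted to 14866 elements with a value on at least 2 of 4 arrays of each group, over 36 arrays, with a dye intercept and strain terms coded 1 in channel 1 and -1 in channel 2. P-values were adjusted by Benjamini-Hochberg over all elements, and an element under 0.05 is called. Precision is limited by the number of arrays, with a median SE of 0.058. Place in the group and parity of the array number were treated as batches, since the SD of log2 ratios averaged 0.265 on the first 2 and 0.346 on the last 2 arrays of a group and 120 spots were empty on all odd-numbered and filled on all even-numbered arrays, with the reverse at 19 spots. For listed genes with several elements, that with most values was used. Named genes were the members, the 3 called genes of smallest p in each list and comparison, and the 5 genes most like each element. On simulated data, 53 of 67 elements changed by 0.3 and 67 of 67 changed by 0.6 were called in Antennapedia[73b] against Oregon[R], with 7 unchanged elements called. Alternatives changed the dye term, arrays, centring, scaling, spots, filter, variance model and batch blocks, and left out each array. The limma test of pairs of elements, the separate Yp3 elements and the neighbouring genes were added after seeing the data. The members and lists were chosen with earlier results of these data known. The table held 0 columns of other samples.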

Additional observations from a re-analysis of the deposited data

Results flagged for a closer look

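Within groups of 4 arrays, and within the 8 direct arrays of a comparison, single arrays stood apart from the others, measured as the gap to the nearest array over the range of the group. Chance flags about 1 in 20 such groups, and 7 were found among 63 groups of 4 and 21 sets of 8. Deposited folds have 1 decimal, so several arrays can share a value, and a ratio of 1 then means that the others were equal. For yl this ratio was 1 in Apterous[56f] against itself (-0.12 against 0.07 on 3 arrays), 0.841 on the Antennapedia[73b] vs Apterous[56f] arrays (-0.43 on array 60) and 0.589 on the 8 direct arrays of Apterous[56f] and Oregon[R] (-0.92 on array 68). For Yp1 it was 1 in Apterous[56f] against itself (0.14 against 0.07 on 3 arrays). The elements listed with Yp3 and Rtc1 had ratios of 0.861 in Apterous[56f] against itself (-0.10), 0.831 on the Oregon[R] vs Antennapedia[73b] arrays and 1 on the Oregon[R] vs Apterous[56f] arrays.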

How the results depend on the processing

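yl kept its side and its call in both comparisons with Oregon[R] under all alternatives run, with leave-one-out ranges of -0.76 to -0.71 and -0.63 to -0.59. Between the mutant strains yl passed after centring on a trimmed mean (-0.15), quantile normalization (-0.14) and with place as a block (-0.12), and ranged from -0.14 to -0.10 with 1 array left out. In Apterous[56f] against Oregon[R] calls were lost without a dye term for Yp3 element A (-0.18), on the direct arrays for Yp1 (-0.21), Yp2 (-0.27), Yp3 element A (-0.19) and Yp3 element B (-0.23), after trimmed-mean centring for Yp3 element A (-0.17), with the first spot alone for Yp3 element A (-0.23) and with the second for Yp3 elements A (-0.13) and B (-0.16). They were lost in the first 2 arrays for Yp1 (-0.17) and Yp3 element A (-0.16), in the last 2 for Yp1 (-0.21), Yp2 (-0.20), Yp3 element A (-0.20) and Yp3 element B (-0.24), and in even-numbered arrays for Yp1 (-0.14), Yp2 (-0.078), Yp3 element A (-0.051) and Yp3 element B (-0.18). Even-numbered arrays also lost Yp2 in Antennapedia[73b] against Oregon[R] (-0.18), and Yp1 (0.19) and Yp3 element A (0.20) between the mutant strains. With 1 array left out, Yp3 element A ran from -0.23 to -0.14 in Apterous[56f] against Oregon[R] and Yp3 element B from 0.14 to 0.18 between the mutant strains. Subsets and direct arrays hold fewer arrays; the cause of the other losses was not tested.

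Calls over all elements numbered 3277, 2335 and 2288 in the 3 comparisons. They were 1951, 683 and 1085 on direct arrays, 1576, 888 and 961 in the last 2 arrays, 1774, 840 and 1068 in even-numbered and 1725, 1401 and 1229 in odd-numbered arrays. In the comparisons with Apterous[56f] they were 1382 and 1486 without a dye term and 1300 and 1259 with the first spot, and in that with Oregon[R] 1406 with the second spot and 1485 in the first 2 arrays. Of 10 pairs of elements in Apterous[56f] against Oregon[R], 4 had an unadjusted exact permutation p under 0.05, and 1 to 3 with 1 array left out (2 without array 54, 55 or 68 and 1 without array 56). In Antennapedia[73b] against Oregon[R] 6 did so, and 9 passed in limma over all 36 arrays. No paired analysis was possible because every array carries its own number and the groups share none. Place in the group and parity of the array number were run as blocks instead.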
